A study of Mus musculus with 6 samples.

Results

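The receptors described here are those of the common gamma-chain cytokines, chosen by name as Il2ra, Il2rb, Il2rg, Il7r, Il15ra, Il21r and Il4ra, together with every probe set annotated to them. The annotation gave 12 probe sets for 6 of these 7 genes, out of 45101 on the array: 3 for Il4ra, 1 for Il21r and 2 for each of the other 4. No probe set was named for Il2rg, which encodes the shared chain, so Il2rg was not analysed here. The cells were CD8 T cells sorted from MCA-205 tumours, a transplanted fibrosarcoma, in male C57BL/6 mice carrying an Eomes-GFP reporter. Every mouse had been given 250 ug of anti-OX40 (days 12 and 16) and 200 ug of anti-CTLA-4 (days 12, 14 and 16), with harvest on day 19, so both fractions come from treated tumours and no untreated group enters. The GFP-positive fraction (Eomes+) and the GFP-negative fraction (Eomes-) were each measured on 3 microarrays, numbered 1 to 3 in the labels. The reporter reads Eomes transcription and not the protein itself. The design text speaks of 3 independent experiments, but no label ties an array to an animal or experiment, so the p-values reflect only how these samples scatter, which may be partly technical.

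Each of these cytokines (IL-2, IL-4, IL-7, IL-9, IL-15 and IL-21) signals through the common gamma chain joined to a chain of its own, and the joined receptor activates the kinases JAK1 and JAK3 and STAT transcription factors. In CD8 T cells, IL-2 drives effector expansion through a high-affinity receptor that contains the alpha chain CD25 (Il2ra), while IL-7 and IL-15 maintain memory cells through CD127 (Il7r) and CD122 (Il2rb). Eomes and its relative T-bet are known to promote Il2rb transcription, which makes CD122 the receptor of this family most directly tied to the factor on which the cells were sorted.

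The DNA just upstream of 4 of the receptor genes is shown because these genes differ in the direction of their mean difference and because they include neighbours: Il4ra and Il21r lie next to each other on chromosome 7, with 0 protein-coding genes between them, as Il2ra and Il15ra do on chromosome 2. RefSeq (GRCm38.p6) gave such a window for 6 of the 7 genes, all but Il2rb. The 250 bases before the annotated start are printed 5′ to 3′ on the gene's strand. Capitals mark any match, on either strand, to a STAT motif (TTCNNNGAA), a T-box motif (GGTGTGA), an ETS motif (CNGGAAG), an NF-kappaB motif (GGGA and CC separated by NNNN) or an interferon response motif (AAANNGAAA).
Il2ra, chr2:11642542-11642791, plus strand: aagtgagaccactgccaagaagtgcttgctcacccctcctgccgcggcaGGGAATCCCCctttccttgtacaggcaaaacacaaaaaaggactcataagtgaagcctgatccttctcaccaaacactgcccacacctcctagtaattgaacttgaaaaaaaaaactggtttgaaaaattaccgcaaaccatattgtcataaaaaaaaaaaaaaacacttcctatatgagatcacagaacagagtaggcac
Il7r, chr15:9529877-9530126, minus strand: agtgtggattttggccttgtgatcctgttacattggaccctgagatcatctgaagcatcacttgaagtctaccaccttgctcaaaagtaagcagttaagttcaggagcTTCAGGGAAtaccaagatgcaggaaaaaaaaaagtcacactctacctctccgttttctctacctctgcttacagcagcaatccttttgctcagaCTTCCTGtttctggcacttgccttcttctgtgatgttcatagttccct
Il21r, chr7:125603179-125603428, plus strand: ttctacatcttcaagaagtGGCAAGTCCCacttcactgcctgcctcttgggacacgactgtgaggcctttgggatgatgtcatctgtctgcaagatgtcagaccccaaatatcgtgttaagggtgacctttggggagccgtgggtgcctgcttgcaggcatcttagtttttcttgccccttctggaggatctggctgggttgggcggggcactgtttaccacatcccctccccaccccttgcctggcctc
Il4ra, chr7:125552021-125552270, plus strand: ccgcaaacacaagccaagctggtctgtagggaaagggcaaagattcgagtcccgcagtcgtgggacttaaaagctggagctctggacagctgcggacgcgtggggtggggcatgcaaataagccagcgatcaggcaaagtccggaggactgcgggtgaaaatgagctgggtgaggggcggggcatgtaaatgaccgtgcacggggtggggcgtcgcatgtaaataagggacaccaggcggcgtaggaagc
The Il2ra window held 1 match, to the NF-kappaB motif, at bases 201 to 192 before the start. The Il7r window held a STAT match at bases 142 to 134 and an ETS match at bases 48 to 42. The Il21r window held an NF-kappaB match at bases 231 to 222, and the Il4ra window held no match to these letters. Of 32851 windows of this length in the table, 7.02% held the STAT motif, 3.33% the T-box motif, 26.6% the ETS motif, 17.6% the NF-kappaB motif and 9.37% the interferon response motif. The motifs do not overlap in the printed windows, and the matches describe letters only.

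Values are log2 signals, so a difference of 1 is a 2-fold difference. All 12 probe sets exceeded the 40th percentile of signals, the filter level (5.70 to 5.72 log2), on 6 of 6 arrays. Eomes was 10.38, 9.86 and 8.38 log2 in the Eomes+ fraction (arrays 1, 2 and 3) and 6.85, 6.89 and 5.42 in the Eomes- fraction, without overlap (difference 3.15, SE 0.63; limma adjusted p = 1.00, unadjusted p = 0.00175). CD8 T cell markers were bright on all arrays (Cd8a between 11.95 and 13.55 log2). RNA of other cells was present too: the mean of 14 tumour and fibroblast markers ran from 9.61 to 12.18 log2 and that of 14 macrophage markers from 8.23 to 10.85. Both replicate 3 arrays were highest in these 2 means and lowest in the CD8 T cell marker mean (10.99 and 11.18 log2 against 12.08 to 12.45 on the other 4). Not every listed gene followed its mean. Thy1 in the tumour list was lowest on the replicate 3 arrays (12.42 log2 on both against 13.13 to 13.33), like the CD8 T cell markers. Vim was nearly flat (13.65 to 13.85), and Ccr2 in the macrophage list was lowest at number 3 in each fraction. The tumour and macrophage covariate used below includes these genes. The log2 ratio of 3′ to 5′ control probe sets is a measure of RNA integrity. For Gapdh it was 1.55 to 1.88 on the Eomes+ arrays and 1.07 to 1.54 on the Eomes- arrays (exact permutation p = 0.1). For beta-actin it was 0.08 to 0.17 and -0.0022 to 0.11, with overlapping fractions (exact permutation p = 0.2). The part of RNA integrity in the results was not tested. In sorted bulk RNA, fewer cells of a type and less RNA per cell cannot be told apart.

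**Figure D1:**
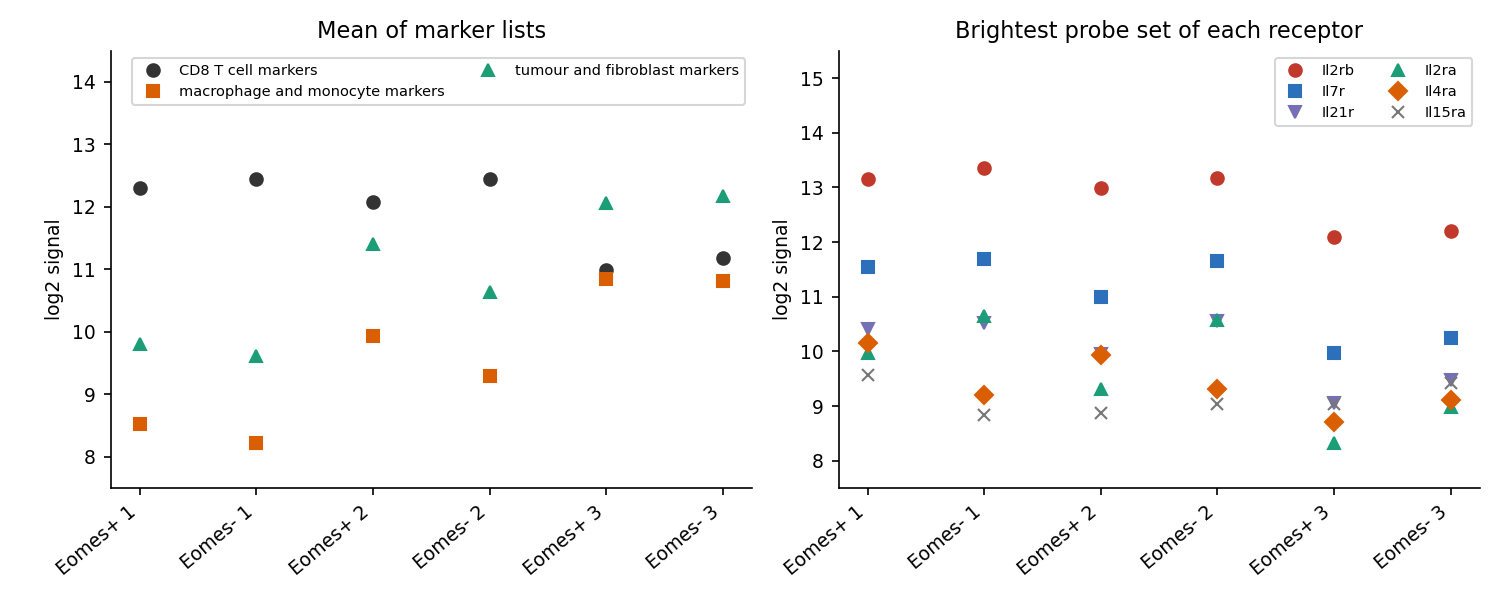
Mean log2 signal of 3 marker lists (left) and log2 signal of the brightest probe set of each receptor (right) on the 6 arrays, 1 point per array. On the replicate 3 arrays the CD8 T cell marker mean, Il2rb, Il7r, Il21r and Il2ra are at their lowest and the tumour and macrophage marker means at their highest.

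Of the 12 receptor probe sets, 7 had a lower and 5 a higher mean in Eomes+ cells, near the background of 53.4% lower and 46.6% higher among the 27766 probe sets tested. None of them passed limma over all probe sets (0 of 12, background 0%), and 0 of 12 had an unadjusted p under 0.05 (background 3.37%, or 936 probe sets: 1.11% higher and 2.27% lower). Comparing arrays of the same replicate number, 6 of 12 were lower in Eomes+ at all 3 numbers, which 17.9% of tested probe sets were, and 2 of 12 were higher at all 3, as 13.3% were. These probe sets are not independent, since several read the same gene. The 6 probe sets lower at all 3 numbers read Il2ra, Il2rb, Il7r and Il21r, and both that were higher read Il4ra. Of 8 CD8 T cell markers, 7 also had a lower mean in Eomes+ and 1 a higher one, with a median of -0.14 log2. Among these markers 5 were lower at all 3 numbers. Of all genes, 52.6% had a lower mean and 17.3% were lower at all 3 numbers.

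**Figure D2:**
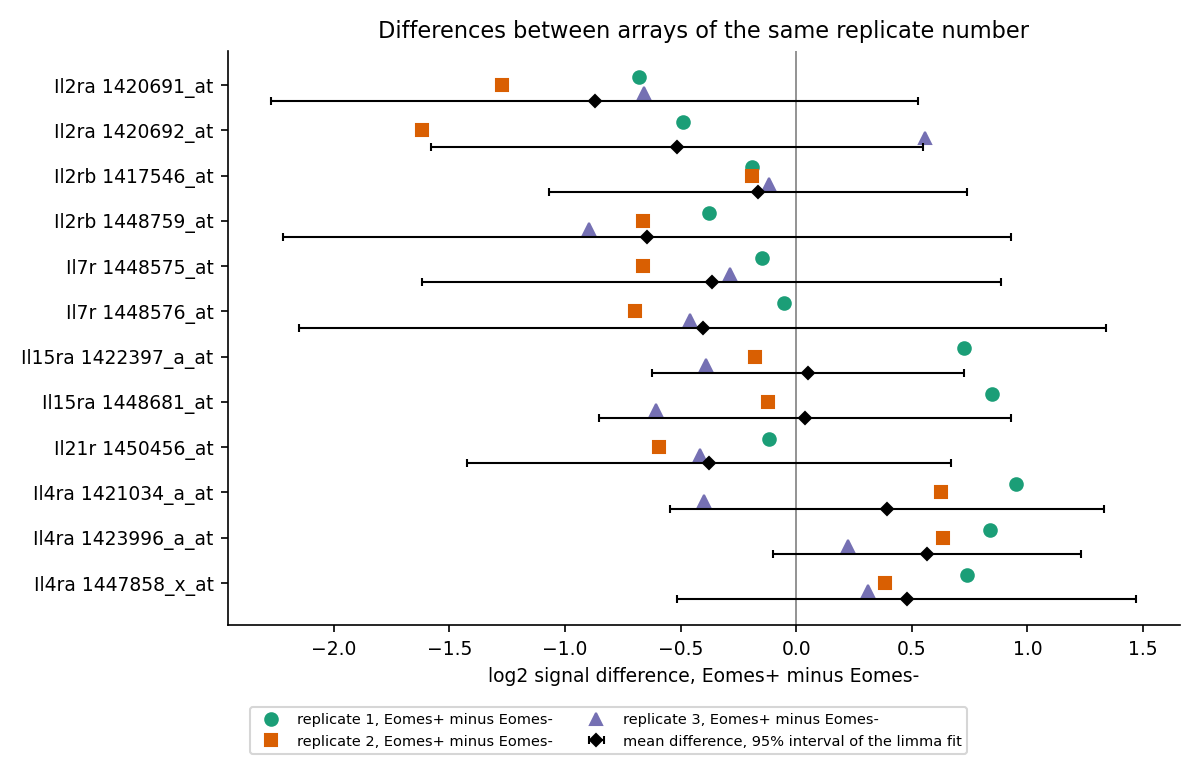
Log2 signal differences, Eomes+ minus Eomes-, for each receptor probe set: coloured points are arrays of the same replicate number, and black diamonds are the mean with the 95% interval of the limma fit (n = 3 per fraction). All 12 intervals include 0, although the points of Il2rb, Il7r and Il21r all lie below it and those of 2 Il4ra probe sets all lie above it.

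The IL-2 receptor alpha chain had the largest mean difference of the family. The brighter Il2ra probe set (1420691_at) read 9.98, 9.31 and 8.32 log2 in Eomes+ (numbers 1 to 3) and 10.66, 10.58 and 8.98 in Eomes-. The fractions overlapped, because the replicate 3 arrays were low in both, yet at each number the Eomes+ array was the lower one, by 0.68, 1.27 and 0.66 log2. The mean was 9.20 ± 0.83 log2 in Eomes+ and 10.07 ± 0.95 in Eomes- (SD, n = 3 each), 1.83-fold lower in Eomes+ (log2 difference -0.87, SE 0.59, 95% interval -2.27 to 0.53; limma adjusted p = 1.00, unadjusted p = 0.183). The other Il2ra probe set (1420692_at) was dim, at 6.41, 6.09 and 6.58 log2 against 6.90, 7.71 and 6.02. Its Eomes+ arrays were lower at numbers 1 and 2 and higher at number 3 (log2 difference -0.52, SE 0.45; limma adjusted p = 1.00).

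CD25 is also a hallmark of regulatory CD4 T cells, whose markers mostly had a lower mean too. Of 8 such markers, all kept by the filter, 7 had a lower mean in Eomes+, as 52.6% of all genes did. None were called (0 of 8), and their median was -0.55 log2. Their summed signal was 11.57 to 11.84 log2 on the Eomes+ arrays and 12.08 to 12.68 on the Eomes- arrays. Capg was the brightest of the 8 on every array (10.49 to 11.64 log2), so the sum leans on it more than on Cd4 or Foxp3. Among the defining genes, Cd4 lay between 6.74 and 7.58 log2 (difference -0.24, SE 0.28) and Foxp3 between 7.25 and 8.19 (difference -0.34, SE 0.28). In Capg (difference -0.77, SE 0.17; limma adjusted p = 1.00, unadjusted p = 0.00331) the fractions did not overlap, and 4.66% of genes were lower without overlap. Ikzf4 differed by -1.66 (SE 0.76) with overlapping fractions, and Izumo1r, the 1 marker with a higher mean, by 0.55 (SE 0.34). Cd40lg was above the filter level on the 3 Eomes- arrays only (5.74, 7.56 and 6.38 log2), so it entered the fit through the fraction where it was higher and no difference is read from it. The count of 7, the median and the summed signal above still include Cd40lg, and are descriptions only. The part of these cells in the Il2ra difference was not tested. When the fit included each array's mean of tumour and macrophage markers, the brighter Il2ra probe set differed by -0.67 log2 (SE 0.24; limma adjusted p = 0.503, unadjusted p = 0.0243). In that fit 8.73% of all tested probe sets had an unadjusted p under 0.05, against 3.37% without the covariate. In the fit with no covariate, the difference of this Il2ra probe set was -0.43 log2 when Eomes+ replicate 3 was left out, -1.42 when Eomes- replicate 3 was, and -0.98 when both were.

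CD122, the beta chain shared by the IL-2 and IL-15 receptors, had a lower mean in Eomes+ in both probe sets of Il2rb. The brighter of them varied least between replicate numbers among the 12 receptor probe sets. The brighter Il2rb probe set (1417546_at) read 13.16, 12.98 and 12.09 log2 in Eomes+ and 13.35, 13.17 and 12.21 in Eomes-. Differences between arrays of the same number were small and even, at -0.19, -0.19 and -0.12 log2. The mean difference was -0.17 log2 (SE 0.38, 95% interval -1.07 to 0.74; limma adjusted p = 1.00), and the interval therefore allows up to 0.74 log2 more Il2rb in Eomes+ cells. The second Il2rb probe set (1448759_at) read 11.79, 11.37 and 9.63 log2 against 12.16, 12.03 and 10.52. It was lower in Eomes+ at every number, by 0.38, 0.66 and 0.90 log2 (mean difference -0.65, SE 0.66; limma adjusted p = 1.00). The sign of the brighter Il2rb probe set was not stable: it was 0.07 log2 when arrays were scaled to their CD8 T cell markers, 0.16 with Eomes+ replicate 3 left out and 0.05 with Eomes- replicate 1 left out. The second probe set stayed at -0.41 log2 under the same scaling and was 0.00 without Eomes+ replicate 3. With both arrays of number 3 left out the Il2rb probe sets differed by -0.19 and -0.52 log2. Under that scaling the median of all probe sets shifted to 0.21 log2 from -0.02.

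**Figure D3:**
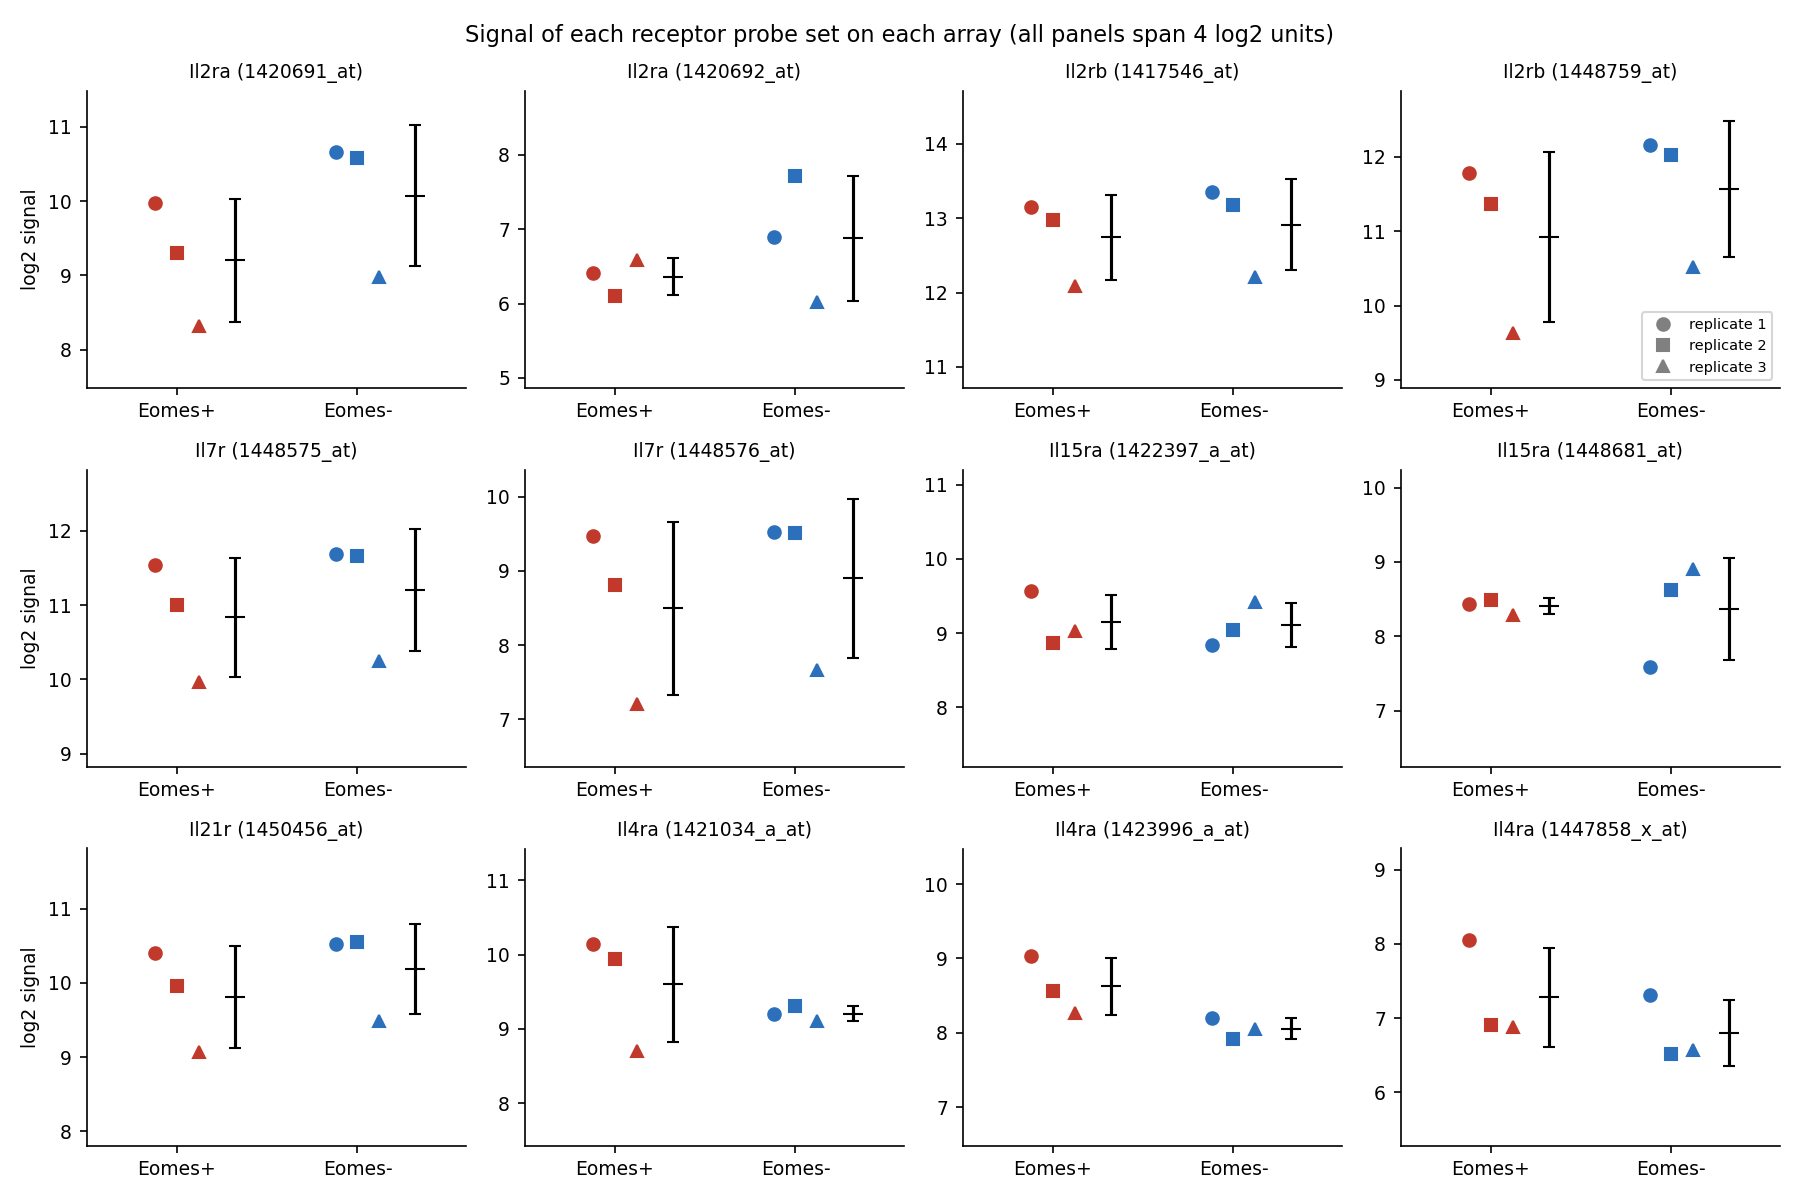
Log2 signal of the 12 receptor probe sets on each array (red Eomes+, blue Eomes-, marker shape for the replicate number), with the mean and SD of 3 arrays beside them. In 1 panel, Il4ra 1423996_a_at, the Eomes+ arrays (8.27 to 9.04) all lie above the Eomes- arrays (7.92 to 8.20).

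The IL-7 receptor alpha chain, a marker of memory precursor and resting T cells, had a lower mean in Eomes+ in both probe sets of Il7r. Probe set 1448575_at read 11.54, 11.00 and 9.97 log2 in Eomes+ and 11.69, 11.66 and 10.25 in Eomes-. The fractions overlapped, and at each number the Eomes+ array was lower, by 0.15, 0.66 and 0.28 log2 (mean difference -0.36, SE 0.53, 95% interval -1.62 to 0.89; limma adjusted p = 1.00). Probe set 1448576_at read 9.47, 8.81 and 7.20 log2 against 9.52, 9.51 and 7.67 and gave the same picture (-0.40, SE 0.73; limma adjusted p = 1.00). With only Eomes+ replicate 3 left out the Il7r probe sets differed by 0.07 and 0.24 log2, and with only Eomes- replicate 3 left out by -0.84 and -1.02. With both arrays of number 3 left out they differed by -0.41 and -0.38 log2, close to the values over all arrays. With arrays scaled to their CD8 T cell markers the Il7r probe sets differed by -0.13 and -0.17 log2. That scaling shifts every probe set by the same amount, and the median of all probe sets moved from -0.02 to 0.21 log2. With the markers as a covariate the Il7r probe sets differed by -0.10 and -0.04. The part of T cell content in these values was not tested.

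Within each array, the brighter Il2ra probe set was lower relative to the brighter Il7r probe set in Eomes+ cells. The brighter Il2ra signal minus the brighter Il7r signal was -1.56, -1.69 and -1.64 log2 in Eomes+ and -1.03, -1.08 and -1.27 in Eomes-. All 3 Eomes+ arrays lay below all 3 Eomes- arrays. Eomes+ replicate 3 lay within the range of its fraction, while Eomes- replicate 3 was the lowest of the Eomes- arrays and nearest to Eomes+. The means were -1.63 ± 0.07 and -1.13 ± 0.13 log2 (SD, n = 3 each), a difference of -0.51 (p = 0.1 by a two-sided exact permutation test, which 3 against 3 arrays cannot go below). Among the other 12570 genes set against the same Il7r probe set, 0.517% were lower in Eomes+ with fractions that did not overlap and 2.83% were higher. These shares cover genes of every kind, and no share was taken over T cell genes alone. The pair was also chosen with earlier results of these data known, so the shares do not measure how rare it is. The difference depended on the probe set: with the dimmer Il7r probe set it was -0.47 log2 (exact permutation p = 0.2), and with the mean of both probe sets of each gene -0.31 (exact permutation p = 0.4). The dim Il2ra probe set gave -0.15 log2 against the brighter Il7r probe set (exact permutation p = 0.8) and -0.11 against the dimmer one (exact permutation p = 0.9). Such a ratio shows unequal change of the 2 genes and not which of them differed. Il2rb minus Il7r was 1.62, 1.98 and 2.13 log2 in Eomes+ and 1.66, 1.51 and 1.96 in Eomes-, with overlapping fractions and a difference of 0.20 (exact permutation p = 0.4).

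**Figure D4:**
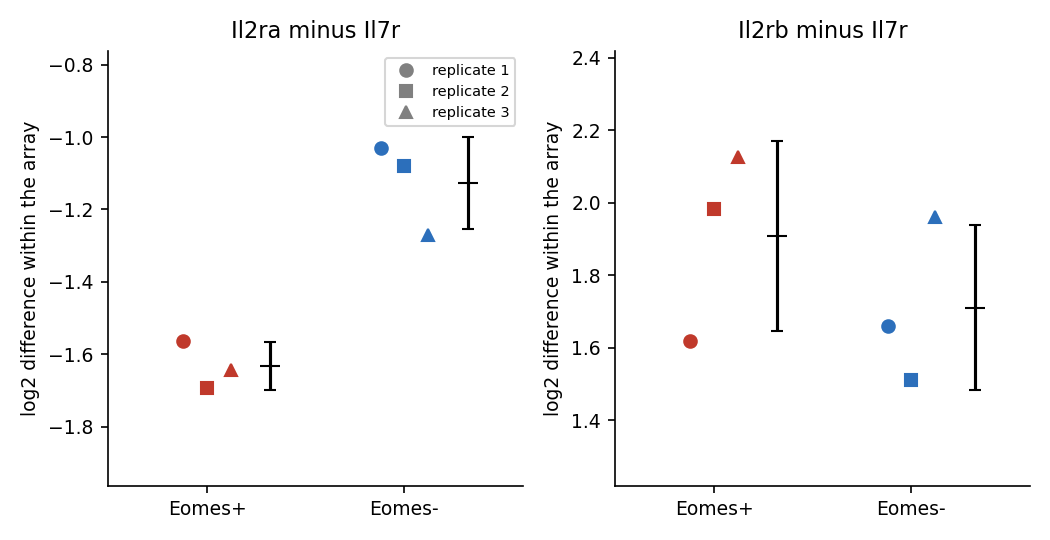
Il2ra minus Il7r (left) and Il2rb minus Il7r (right), as log2 differences between the brightest probe sets within each array, with the mean and SD of 3 arrays per fraction. Il2ra minus Il7r lies between -1.69 and -1.56 in Eomes+ and between -1.27 and -1.03 in Eomes-, while Il2rb minus Il7r overlaps.

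The IL-21 receptor, through which IL-21 from helper T cells sustains CD8 T cells in chronic responses, followed Il7r across the arrays. Il21r (1450456_at) read 10.41, 9.96 and 9.06 log2 in Eomes+ and 10.52, 10.55 and 9.48 in Eomes-. Eomes+ arrays were lower by 0.12, 0.60 and 0.42 log2 at numbers 1, 2 and 3 (mean difference -0.38, SE 0.44, 95% interval -1.42 to 0.67; limma adjusted p = 1.00). The Il21r difference was -0.00 log2 with only Eomes+ replicate 3 left out, -0.73 with only Eomes- replicate 3 left out, and -0.36 with both left out. It was -0.14 log2 with arrays scaled to their CD8 T cell markers and -0.17 with those markers as a covariate. The scaling shifts every probe set alike, and the median of all probe sets was then 0.21 log2.

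The IL-4 receptor alpha chain, which also serves the IL-13 receptor, had a higher mean in Eomes+ cells in all 3 of its probe sets. Il4ra probe set 1423996_a_at read 9.04, 8.56 and 8.27 log2 in Eomes+ against 8.20, 7.92 and 8.05 in Eomes-. This was the only receptor probe set whose fractions did not overlap (1 of 12; among all tested probe sets 2.92% were higher without overlap and 5.14% lower). Its mean was 8.62 ± 0.39 against 8.06 ± 0.14 log2 (SD, n = 3 each), 1.48-fold higher in Eomes+ (log2 difference 0.57, SE 0.28, 95% interval -0.10 to 1.23; limma adjusted p = 1.00, unadjusted p = 0.0834, the lowest of the family). Without Eomes+ replicate 1 the difference was 0.36 log2.

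The brightest Il4ra probe set (1421034_a_at) read 10.15, 9.94 and 8.71 log2 in Eomes+ and 9.20, 9.31 and 9.11 in Eomes-. The Eomes+ arrays were higher at numbers 1 and 2 and lower at number 3 (mean difference 0.39, SE 0.39; limma adjusted p = 1.00). Without Eomes+ replicate 3 it differed by 0.84 log2 (SE 0.22; limma adjusted p = 0.999, unadjusted p = 0.00966). The third (1447858_x_at), of a design type prone to cross-hybridisation, read 8.05, 6.91 and 6.88 log2 against 7.31, 6.52 and 6.57, higher in Eomes+ at each number (0.48, SE 0.42; limma adjusted p = 1.00). Without Eomes+ replicate 1 these 2 probe sets differed by 0.12 and 0.09 log2.

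Il4ra is also expressed by macrophages and B cells. Of 14 detected macrophage markers 11 had a higher mean in Eomes+, as 47.4% of all genes did. Their median was 0.28 log2, and their summed signal was 13.22, 14.71 and 15.40 log2 against 12.92, 14.00 and 15.42. Fitted together with the mean of the tumour and macrophage markers, the non-overlapping Il4ra probe set differed by 0.62 log2 (SE 0.24; limma adjusted p = 0.522, unadjusted p = 0.0322). An unadjusted p under 0.05 was reached by 8.73% of all tested probe sets in that fit. With the replicate number as a block beside that covariate, the non-overlapping Il4ra probe set differed by 0.43 (limma adjusted p = 0.848). The brightest Il4ra probe set then differed by 0.04 (limma adjusted p = 0.998). Of the B and plasma cell markers 4 were above the filter, Ms4a1 was not, and 3 of the 4 had a higher mean. The summed B cell signal was 9.65 to 10.64 log2 on the Eomes+ arrays and 9.47 to 9.59 on the Eomes- arrays, led by Ighm (difference 0.77, SE 0.37). The covariate pools tumour and macrophage markers, so it cannot single out macrophages. The parts of macrophages and of B cells in the Il4ra values were not tested.

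The IL-15 receptor alpha chain, which presents IL-15 to cells that carry CD122, showed no common direction. Il15ra probe set 1422397_a_at read 9.57, 8.87 and 9.03 log2 in Eomes+ and 8.84, 9.05 and 9.42 in Eomes- (difference 0.05, SE 0.28, 95% interval -0.62 to 0.73; limma adjusted p = 1.00). Probe set 1448681_at read 8.44, 8.49 and 8.29 log2 against 7.59, 8.62 and 8.90 (difference 0.04, SE 0.37; limma adjusted p = 1.00). In both, the Eomes+ array was higher at number 1 and lower at numbers 2 and 3. The sign of both turned under several settings, among them array weights (-0.06 log2 each) and leaving out both arrays of number 1 (-0.29 and -0.36).

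Across the 6 arrays, Il2ra, Il2rb, Il7r and Il21r varied together, with Pearson correlations between 0.917 and 0.995 for their brightest probe sets, whereas Il15ra correlated with them at -0.234 to -0.0788 and Il4ra at 0.354 to 0.608. All of these values share the low CD8 T cell signal of the replicate 3 arrays and are given as descriptions over 6 arrays. Among 12571 genes, the signals most like Il2ra were those of Stat3 (r = 0.998) and Cd82 (0.996), and those most like Il2rb were Ostm1 (0.999) and the T cell receptor kinase gene Zap70 (0.996). Il7r was most like Pnrc1 and Tbx21 (0.999 each), Il21r most like Ccndbp1 (0.999) and Trmt13 (0.998), Il4ra most like Tpst2 and Cpsf3 (0.981 each), and Il15ra most like Khdc4 (0.978) and Atoh8 (0.962).

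Of the ligands, Il2 and Il15 passed the filter. Il2 read 5.53, 7.33 and 5.98 log2 in Eomes+ and 7.13, 10.30 and 7.78 in Eomes-. Every Eomes+ array was lower than the Eomes- array of its number, by 1.59, 2.97 and 1.79 log2, but the fractions overlapped (mean difference -2.12, SE 0.88; limma adjusted p = 1.00, unadjusted p = 0.0485), and Eomes+ array 1 lay below the filter level, so the size is uncertain. Il15, made mainly by myeloid and stromal cells, was above the filter on 3 of 6 arrays and differed by -0.34 log2 (SE 1.03). Il4, Il7, Il9, Il21 and Tslp lay below the filter level on all 6 arrays and were not tested. Of the partner chains, Il9r was below the filter too. Il13ra1, which pairs with the IL-4 receptor alpha chain in non-lymphoid cells, was 0.94 log2 higher (SE 0.99). Il13ra1 ranged from 6.79 to 10.47 log2 and was highest on both replicate 3 arrays, where the macrophage marker mean was highest. Crlf2, the TSLP receptor chain, differed by 0.22 log2 (SE 0.35) and Il13ra2, a decoy receptor, by -0.26 (SE 0.30).

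Downstream of the receptors, none of the kinases and STAT factors passed (0 of 8 tested genes; limma over all probe sets, background 0%), with 6 of 8 at a lower mean (52.6% of all genes were lower and 47.4% higher), and a median of -0.13 log2 against -0.02 for all genes. Jak1 differed by 0.05 log2 (SE 0.35), Jak3, which binds the common gamma chain, by -0.34 (SE 0.45), Tyk2 by -0.37 (SE 0.38), Stat3 by -0.45 (SE 0.31), Stat5a by -0.21 (SE 0.41) and Stat5b by -0.05 (SE 0.41). The other Stat5b probe set differed by -0.64 log2 (SE 0.36), while the other Stat5a probe set differed by 0.03. Of 12 tested adaptor and PI3K pathway genes, 11 had a lower mean and 0 passed (median -0.21 log2). Sos1, a Ras exchange factor, differed by -0.60 (SE 0.29), with fractions that did not overlap. It was 1 of 12 to be lower without overlap, as 4.66% of all genes were. The PI3K subunit gene Pik3r1 differed by -0.57 (SE 0.47), the adaptor gene Irs2 by -0.44 (SE 0.29) and the adaptor gene Grb2 by -0.24 (SE 0.23).

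Target genes of STAT5 and STAT6 went both ways, with 9 of 21 higher and 12 lower, 0 passed, and a median of -0.06 log2. Cish, a classical feedback target of IL-2 and STAT5, read 10.49, 10.42 and 9.34 log2 in Eomes+ and 11.28, 11.35 and 9.75 in Eomes-. It was lower at every number, by 0.79, 0.93 and 0.41 log2, with overlapping fractions, and 17.3% of genes were lower at all 3 numbers (mean difference -0.71, SE 0.51; limma adjusted p = 1.00). Socs3, the feedback inhibitor of STAT3-coupled receptors, lay in the opposite direction, at 12.22, 11.73 and 11.99 log2 against 10.22, 9.93 and 11.61. Its fractions did not overlap, which held for 7.71% of genes, 3.05% higher and 4.66% lower (mean difference 1.39, SE 0.43; limma adjusted p = 1.00, unadjusted p = 0.0151, a level that 3.13% of genes reached). Socs2 differed by -0.83 log2 (SE 0.45), Socs1 by -0.24 (SE 0.26), the kinase gene Pim1 by 0.27 (SE 0.18) and the perforin gene Prf1 by -0.34 (SE 0.23). Bcl2, the survival factor maintained by IL-7, differed by 0.31 log2 (SE 0.38) for its brightest probe set, and its 4 other probe sets by -0.09 to 0.85.

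**Figure D5:**
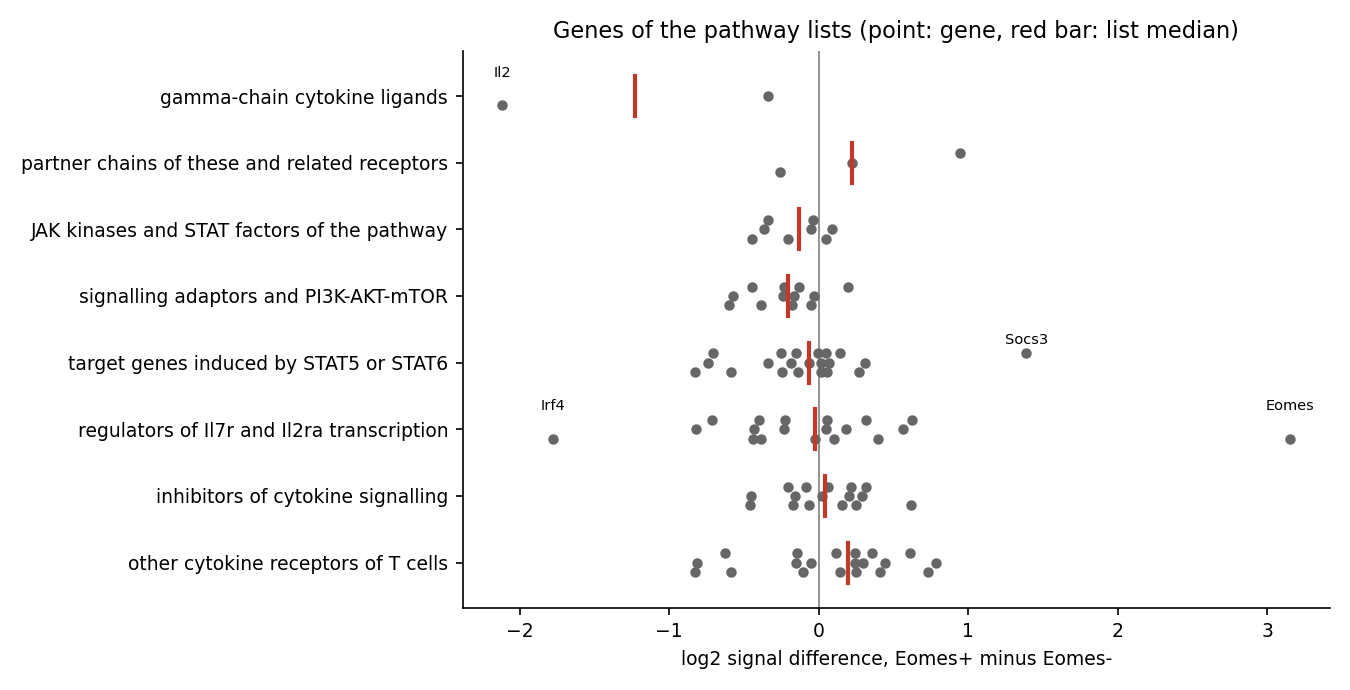
Log2 differences, Eomes+ minus Eomes-, of the tested genes of 8 pathway lists, each gene by its brightest probe set (grey points) with the list median (red bar). Medians lie between -0.21 and 0.22 except for the ligands, where 2 genes were tested and Il2 lies at -2.12. The list of regulators includes Eomes (3.15), the gene on which the fractions were sorted.

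Among 19 tested factors that regulate Il7r or Il2ra transcription, 9 had a higher and 10 a lower mean, and 0 passed (median -0.03 log2). The 9 include Eomes, whose direction was set by the sort. Foxo1, an activator of Il7r, was higher at each number, by 0.78, 0.63 and 0.28 log2 (mean difference 0.56, SE 0.40), although its 3 other probe sets ranged from -0.07 to 0.74, and Klf2, another gene induced by Foxo1, by 1.06, 0.68 and 0.13 (0.62, SE 0.34). Gfi1, a repressor of Il7r, differed by -0.43 log2 (SE 0.68). On the activation side, Irf4 read 8.46, 8.01 and 6.60 log2 in Eomes+ and 9.91, 9.84 and 8.66 in Eomes-, without overlap (mean difference -1.78, SE 0.57; limma adjusted p = 1.00, unadjusted p = 0.0177), and Prdm1, which encodes the repressor Blimp-1, read 7.76, 7.78 and 7.22 against 8.59, 8.46 and 7.85, also without overlap (-0.71, SE 0.31). Of the 19 factors, 2 were lower and 1 (Eomes) higher without overlap, as 4.66% and 3.05% of all genes were. Irf4 and Prdm1 were among the genes named for the smallest p of their list. These lists were drawn up with results of these data known, so their directions are not independent evidence. Of 16 inhibitors of cytokine signalling, 9 had a higher and 7 a lower mean and 0 passed (median 0.04 log2). Pias4 differed by -0.46 (SE 0.21), the STAT5 phosphatase gene Ptpn2 by 0.25 (SE 0.15), Ptpn1 by -0.45 (SE 0.28) and Socs6 by 0.61 (SE 0.47).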

How the data were processed

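RNA of 6 sorted samples, 3 per fraction by their titles, was measured on microarrays. The authors deposited log2 values for 45101 probe sets, between 1.68 and 14.95; the submitters' processing notes list MAS5 and Transcriptome Analysis Console with no roles, so how probes were summarised is not known here. The log2 scale was read from the values. Array medians were 6.35 to 6.42, so a shift common to most genes would already have been removed.

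Probe sets were named from the platform annotation, updated through RefSeq (34945 with 1 symbol, 932 with several and not named, 9160 without). After leaving out 64 controls, probe sets exceeding the 40th percentile of an array on 3 or more of the 6 arrays were kept (27766) and compared with limma 3.58.1 in R 4.3.3 (intensity trend, fraction as the only term, two-sided, Benjamini-Hochberg over all kept probe sets, threshold 0.05). Lists used each gene's brightest kept probe set. Single ratios were compared by exact permutation, two-sided. The fit was tested on simulated data. The members, lists, motifs and tests were chosen with earlier results of these data known. Named genes were all member probe sets, up to 4 genes of smallest p per pathway list, a fixed set of pathway genes, and the 2 genes most correlated with each member. Alternatives were a replicate block, 1 probe set per gene, quantile and median scaling, other filters, pseudocounts and variance models, array weights, covariates and samples left out. The number of arrays limits precision.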

Additional observations from a re-analysis of the deposited data

How the results depend on the processing

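Over 27 alternative settings the receptor probe sets gave 316 values, of which 0 passed limma over all probe sets, 293 kept the direction and 23 turned. Not all of these values could turn. The replicate block alone, the other filters, the other variance models and keeping only each gene's brightest probe set change the errors but not the difference. With both arrays of a number left out, the block again repeated the same difference. The 293 are therefore not separate checks of direction. The brighter Il2ra probe set, Il21r and all 3 Il4ra probe sets kept their direction in every setting run, including those in which it could not change. The cause of the turns was not tested. The number of arrays, and signals near background for the second Il2ra probe set, limit what can be said.

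Numbers were not treated as pairs in the main fit. The correlation of deviations between arrays of the same number was 0.595, 0.0995 and 0.628 for 1, 2 and 3 (all probe sets). Number 2 thus fell just short of the 0.1 asked of each, and whether numbers are pairs is not settled. Same-number differences are therefore descriptions. The choice changes the errors: the SE of Il2ra 1420691_at was 0.59 log2 without the replicate block and 0.19 with it. Eomes- array 2 had its highest correlation with Eomes+ array 1 (0.302). With the replicate block limma called 0 probe sets, as without it, but 2748 had an unadjusted p under 0.05 against 936. Of the receptors, 4 probe sets were then lower and 1 higher at an unadjusted p under 0.05, with a lowest adjusted p of 0.225 (Il2rb 1448759_at, unadjusted p = 0.00164; Il2ra 1420691_at, 0.00291). With the block, Il2ra minus Il7r differed by -0.51 log2 (exact permutation p = 0.25, the smallest 3 pairs allow) and Il2rb minus Il7r by 0.20 (0.5).

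Counts of probe sets at an unadjusted p under 0.05 were 409 with 1 probe set per gene, 1462 with no filter and 562 with the 60th percentile filter, where the number tested differs. They were 6270 with array weights (74 called), 2425 with the other-cell covariate, 2263 with that covariate and the replicate block (3 called), 201 with T cell marker scaling and 2448 with the T cell marker covariate (11 called). The last 2 settings were added after seeing the data. Leaving out 1 array gave 449 (without Eomes- replicate 2) to 1555 (without Eomes- replicate 3), with 614 without Eomes- replicate 1, and 0 called. Leaving out both arrays of number 1, 2 or 3 gave 511, 225 and 1689, with 0 called, and with the replicate block 1863, 1923 and 2685, with 0, 1 and 11 called.

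Log2 values that turned sign were as follows. Il15ra 1422397_a_at was -0.0563 with array weights and 0.285 with T cell marker scaling, and with arrays left out it ran from -0.285 (number 1 left out) to 0.273 (number 3 left out). Il15ra 1448681_at was -0.0581 with array weights, -0.0355 and -0.0797 with the other-cell covariate without and with the block, and -0.0233 with the T cell marker covariate. With arrays left out it ran from -0.365 (number 1 left out) to 0.361 (number 3 left out), with -0.00513 lacking Eomes+ replicate 2. Il2ra 1420692_at was 0.343 with the other-cell covariate and block and -1.36 with array weights, and with arrays left out it ran from -1.05 (number 3 left out) to 0.0347 (number 2 left out, with or without the block). Il2rb 1417546_at was 0.0668 with T cell marker scaling and 0.0248 with the T cell marker covariate. Leaving out Eomes- replicate 3 or Eomes+ replicate 3 gave, in that order, -0.517 and 0.159 for it, -1.17 and 0.00425 for Il2rb 1448759_at, -0.839 and 0.0698 for Il7r 1448575_at, and -1.02 and 0.243 for Il7r 1448576_at. Il2rb minus Il7r was -0.022 with the mean of all probe sets of each gene. Il2ra minus Il7r ran from -0.577 to -0.458 with each array left out in turn.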

Other observations

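Other cytokine receptors of T cells, listed beside the gamma-chain family, had a higher mean in Eomes+ in 12 of 20 tested genes and a lower one in 8, with a median of 0.19 log2, and 0 passed limma over all probe sets. Ifnar2, a chain of the type I interferon receptor, was higher without overlap between fractions (difference 0.41 log2, SE 0.15; limma adjusted p = 1.00, unadjusted p = 0.0304). It was 1 of 20 to be so, as 3.05% of all genes were. Il12rb2, the signalling chain of the IL-12 receptor, differed by -0.83 log2 (SE 0.49), the decoy receptor gene Il1r2 by -0.82 (SE 0.35) and Il17ra by 0.25 (SE 0.15). The 2 chains of the IL-6 receptor, Il6ra and Il6st, differed by 0.79 (SE 0.59) and 0.61 log2 (SE 0.40), and were named after their values were seen.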
